A study of Homo sapiens with 6 samples.

Results

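Palmitoyltransferases of the ZDHHC family attach the fatty acid palmitate to cysteines of other proteins through a thioester bond, and most are membrane proteins of the endoplasmic reticulum, the Golgi or the plasma membrane. The bond can be cut again by thioesterases, so a palmitoylated protein can cycle between membranes and between active and inactive states. In the heart, palmitoylation is known for ion pumps, exchangers and their small regulators, among them phospholamban, a substrate of ZDHHC16.

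The genes described here are 10 of the 24 ZDHHC genes among the 58884 genes measured, namely ZDHHC3, ZDHHC4, ZDHHC5, ZDHHC6, ZDHHC7, ZDHHC8, ZDHHC12, ZDHHC13, ZDHHC16 and ZDHHC20. They were chosen by name after their values in this same comparison were known, since ZDHHC16 was higher in every library with CIRBP knocked down. Their differences between the groups are therefore given as descriptions, with no p-value, and the counts of these genes past a threshold that are given further on support nothing. Together the 10 genes held between 81.4% and 84.2% of the summed TPM (a count scaled by transcript length and library size) of the family in each library.

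RNA-seq was performed on T0519 cells, an immortalized line of human ventricular cardiomyocytes that received either a negative control siRNA (NC, n = 3 libraries) or siRNA against the cold-inducible RNA-binding protein CIRBP (SiCIRBP, n = 3). The study's text names AC16, another such line, for the RNA-seq, whereas the labels name T0519 for all 6 libraries. The comparison asked which transcripts differ when CIRBP is reduced. The study left out NC_1 and SiCIRBP_2 because of their expression profiles, so the fitted values below come from NC_2, NC_3, SiCIRBP_1 and SiCIRBP_3, and all 6 libraries are shown beside them.

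The libraries held between 25726259 and 29919566 estimated counts. CIRBP itself was at 86.4, 85.8 and 91.0 CPM (counts scaled by library size and not by length) in NC_1, NC_2 and NC_3 and at 54.8, 24.3 and 46.3 in SiCIRBP_1, SiCIRBP_2 and SiCIRBP_3, so it was lower in each knockdown library and lowest in SiCIRBP_2 (log2 difference over the 4 libraries -0.81, edgeR adjusted p = 0.0083). SiCIRBP_2 also stood apart in 14 interferon-stimulated genes, where its median lay 3.72 above NC on the log2 scale against -0.84 in SiCIRBP_1 and 0.94 in SiCIRBP_3, and the part of this in the values below was not tested. Of 17 cardiomyocyte markers only 5 passed the filter on low counts, and MYH6, MYL2, RYR2 and PLN were listed at 0 in all 6 libraries, while GATA4 was at 47.4 to 111 CPM and the mesenchymal marker VIM at 3429 to 4734 CPM. In bulk RNA, fewer cells of a kind and less RNA per cell cannot be told apart. Nothing in the labels says that the replicates were separate cultures, so p-values measure only the spread between these libraries.

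ZDHHC16 encodes a palmitoyltransferase of the endoplasmic reticulum that is known to palmitoylate phospholamban and another member of the family, ZDHHC6. In the NC libraries it was at 44.5 CPM in NC_1, 35.2 in NC_2 and 31.9 in NC_3. In the knockdown libraries it was at 96.8 CPM in SiCIRBP_1, 73.9 in SiCIRBP_2 and 96.6 in SiCIRBP_3. The groups did not overlap, and the lowest knockdown library lay 1.66-fold above the highest NC library. The means were 37.2 ± 6.54 CPM (SD, n = 3) in NC and 89.1 ± 13.2 CPM (SD, n = 3) in SiCIRBP, a 2.39-fold ratio. The 2 libraries nearest to the other group, NC_1 and SiCIRBP_2, were those that the study left out. On the log2 scale the fitted difference was 1.53 ± 0.09 (standard error) over the 4 libraries and 1.26 ± 0.17 over all 6. Among the 3 knockdown libraries ZDHHC16 and CIRBP had the same order, both highest in SiCIRBP_1 and lowest in SiCIRBP_2, so the library with the least CIRBP had the least ZDHHC16 of the 3.

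**Figure D1:**
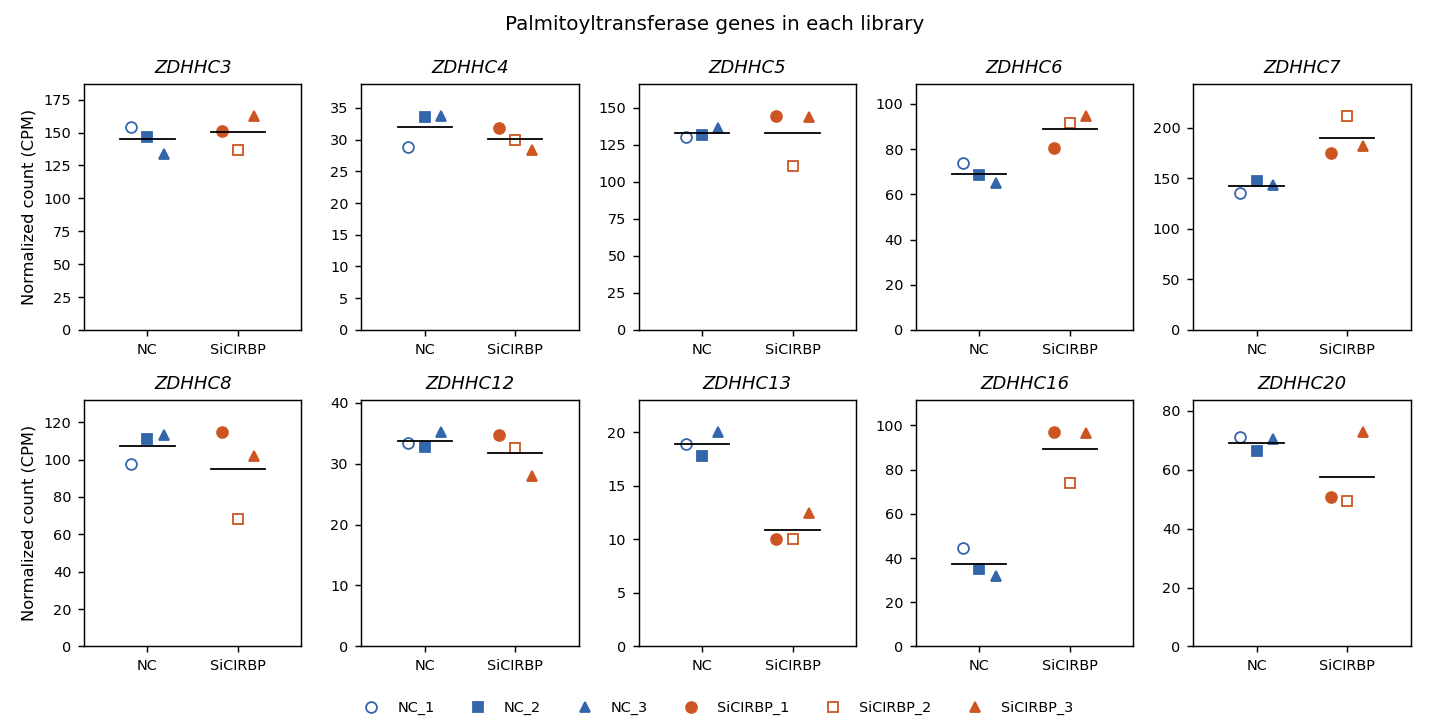
Normalized counts (CPM, linear axes from 0) of the 10 palmitoyltransferase genes, 1 panel per gene, with a point for each library and a black line at the mean of each group of 3. Open symbols mark NC_1 and SiCIRBP_2, which the study left out. ZDHHC16 lies between 73.9 and 96.8 CPM in SiCIRBP and between 31.9 and 44.5 in NC, ZDHHC13 is lower in each SiCIRBP library, ZDHHC6 and ZDHHC7 are higher by smaller amounts, and the other 6 genes overlap.

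ZDHHC16 lies on chromosome 10 at 97446131 to 97457370 on the plus strand (GRCh38, GENCODE 29), with 18 annotated transcripts, of which 11 are protein-coding. No other annotated gene overlaps it, and 0.0% of the 31-base words of its transcripts occur in those of another gene, so no annotated copy or neighbour shares its sequence at that word length. The gene stands head to head with EXOSC1, a subunit of the RNA-degrading exosome, which is read from the minus strand and starts 113 bases upstream. The stretch between both starts is shown because ZDHHC16 and EXOSC1 begin at its ends. It is given on the plus strand from RefSeq's GRCh38 sequence at chr10:97446018-97446130, with capitals marking an E-box, CACGTG, and 2 CCAAT boxes, which are read on the other strand.
EXOSC1-ZDHHC16 intergenic: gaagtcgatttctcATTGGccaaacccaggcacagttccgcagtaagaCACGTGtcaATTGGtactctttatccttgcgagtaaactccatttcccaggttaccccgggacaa

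The E-box starts 65 bases before the annotated start of ZDHHC16, and the CCAAT boxes 99 and 56 bases before it, and these matches do not overlap each other. In RefSeq windows of 250 bases before to 50 after each gene's start, searched on both strands, the E-box was present in 7.3% of 35116 windows. ZDHHC16 was the only gene to hold it among the 8 genes described here that have such a window (ZDHHC4 and ZDHHC13 were not matched). The CCAAT box was present in 34.6% of all windows and in those of 4 of the 8, namely ZDHHC5, ZDHHC6, ZDHHC12 and ZDHHC16. The GC box, GGGCGG, was present in 45.0% of all windows and in those of all 8. A match describes the sequence only.

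Neither neighbour of ZDHHC16 was higher in the knockdown libraries as a group. EXOSC1 was at 48.2, 52.7 and 48.9 CPM in NC_1, NC_2 and NC_3 and at 49.0, 23.1 and 45.4 in SiCIRBP_1, SiCIRBP_2 and SiCIRBP_3. The groups overlapped, and the fitted log2 difference over the 4 libraries was -0.10 ± 0.10 (standard error, edgeR quasi-likelihood adjusted p = 0.48). In SiCIRBP_2 it lay far below the other libraries. MMS19, which acts in iron-sulfur cluster delivery and lies 953 bases downstream of ZDHHC16 on the opposite strand, was at 96.0, 112 and 119 CPM in the NC libraries and at 93.5, 95.7 and 82.9 in the SiCIRBP libraries, in the same order. Its groups did not overlap, by a margin of 96.0 against 95.7 CPM, and its log2 difference was -0.39 ± 0.10 (standard error, edgeR quasi-likelihood adjusted p = 0.0346). MMS19 thus passed the test over the 4 libraries, in the opposite direction to ZDHHC16, and neither neighbour passed it in DESeq2 over 6 (adjusted p = 0.278 for MMS19 and 0.412 for EXOSC1).

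ZDHHC6 encodes the other endoplasmic reticulum enzyme of this pair, which acts with the selenoprotein SELENOK and palmitoylates calnexin, the inositol trisphosphate receptor and the transferrin receptor. It was at 74.0, 68.4 and 65.0 CPM in NC_1, NC_2 and NC_3 and at 80.3, 91.6 and 94.8 in SiCIRBP_1, SiCIRBP_2 and SiCIRBP_3. Each knockdown library was above each NC library, the nearest pair by 1.09-fold. The log2 difference was 0.39 ± 0.11 (standard error), and the TPM means were 50.2 ± 2.95 and 57.8 ± 4.91 (SD, n = 3 each). ZDHHC16 and ZDHHC6 were thus both higher in CPM in each knockdown library, ZDHHC16 by more, as were 16.2% of all genes tested.

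ZDHHC7 and ZDHHC3 encode a closely related pair of Golgi enzymes with many substrates, among them G protein alpha subunits. ZDHHC7 was at 135, 147 and 144 CPM in the NC libraries and at 175, 212 and 181 in the SiCIRBP libraries, with no overlap. Its log2 difference was 0.29 ± 0.08 (standard error) over the 4 libraries and 0.42 over all 6, with SiCIRBP_2 the highest library. On the TPM scale ZDHHC7 went from 66.9 ± 3.90 to 75.8 ± 1.79 (SD, n = 3 each), a 1.13-fold ratio against 1.33-fold in CPM. ZDHHC3 was at 154, 146 and 134 CPM in NC and at 151, 137 and 163 in SiCIRBP, and the groups overlapped. Its log2 difference was 0.17 ± 0.09 (standard error).

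ZDHHC5 and ZDHHC8 encode a pair of enzymes with long cytoplasmic tails, of which ZDHHC5 acts at the plasma membrane on flotillin-2 and phospholemman. ZDHHC5 was at 130.4, 131 and 136 CPM in NC and at 144, 111 and 143 in SiCIRBP. ZDHHC8 was at 97.8, 111 and 113 CPM in NC and at 115, 68.3 and 102 in SiCIRBP. Both genes overlapped between the groups and both had their lowest value in SiCIRBP_2. Over the 4 libraries the log2 difference was 0.11 ± 0.08 for ZDHHC5 and -0.05 ± 0.09 for ZDHHC8 (standard errors). ZDHHC20, a plasma membrane enzyme known to act on EGFR and IFITM3, was at 71.0, 66.4 and 70.4 CPM in NC and at 50.6, 49.3 and 72.7 in SiCIRBP. Its knockdown libraries split, SiCIRBP_3 lying above the NC libraries and the other two below them, and the log2 difference was -0.15 ± 0.17 (standard error).

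ZDHHC13 was the 1 gene of the 10 that was lower in each knockdown library in both CPM and TPM. It encodes 1 of the enzymes with ankyrin repeats, a domain it shares with ZDHHC17 alone in the family. It was at 18.9, 17.7 and 20.0 CPM in NC_1, NC_2 and NC_3 and at 10.0, 10.0 and 12.4 in SiCIRBP_1, SiCIRBP_2 and SiCIRBP_3, with no overlap. The means were 18.9 ± 1.11 and 10.8 ± 1.40 CPM (SD, n = 3 each), a ratio of 0.57, and the log2 difference was -0.75 ± 0.15 (standard error). The left-out SiCIRBP_2 lay with the other knockdown libraries here. ZDHHC4 and ZDHHC12, enzymes of internal membranes, overlapped between the groups in CPM. ZDHHC4 was at 28.8, 33.6 and 33.8 CPM in NC and at 31.9, 29.9 and 28.4 in SiCIRBP, and its log2 difference was -0.16 ± 0.11 (standard error). ZDHHC12 was at 33.4, 32.7 and 35.1 CPM in NC and at 34.8, 32.6 and 28.0 in SiCIRBP, and its log2 difference was -0.11 ± 0.13 (standard error). In TPM, ZDHHC12 was lower in every SiCIRBP library (38.5 to 47.8) than in every NC library (48.2 to 52.9), whereas in CPM the groups overlapped. The ratio of its group means was 0.84 in TPM against 0.94 in CPM. In each of the 10 genes this ratio was lower in TPM than in CPM, so such a gap was not particular to ZDHHC12. The 2 scales are normalized differently.

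When all 15421 genes were tested over the 4 libraries (edgeR, quasi-likelihood), with Benjamini-Hochberg adjusted p below 0.05 and a minimum change of 2-fold required, 1 of the 10 genes was called up (ZDHHC16) and 0 down, where 1.82% of all genes were called up and 1.80% down. Without the minimum fold, 3 were called up (ZDHHC6, ZDHHC7 and ZDHHC16) and 1 down (ZDHHC13), against 9.62% and 9.76% of all genes. DESeq2 over all 6 libraries called 2 up (ZDHHC7 and ZDHHC16) and 1 down (ZDHHC13), against 4.40% and 4.90%. In CPM, 3 genes lay higher in all SiCIRBP than in all NC libraries and 1 lower, against 16.2% and 16.6% of all genes. The 10 genes were selected on this contrast, so nothing is read from these counts, and all 10 passed the filter on low counts. Over all 6 libraries edgeR called 0 genes of any kind at an adjusted p under 0.05, with 3603 of 15217 at an unadjusted p under 0.05, while DESeq2 called 635 up and 706 down.

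The order of the 10 genes by level, compared per length in TPM, changed mainly through ZDHHC16. In NC, ZDHHC3 was highest at 75.8 TPM, followed by ZDHHC7 at 66.9 and ZDHHC8 at 56.5, and ZDHHC16 was seventh at 38.5 ± 6.15 (SD, n = 3), between ZDHHC5 at 46.2 and ZDHHC4 at 36.4, with ranges that overlapped those of both neighbours. In SiCIRBP, ZDHHC16 had the highest mean at 83.0 ± 15.9 TPM (SD, n = 3), ahead of ZDHHC7 at 75.8 and ZDHHC3 at 75.3, again with overlapping ranges. ZDHHC20 and ZDHHC13 were the lowest of the 10 in both groups, and their ranges were separate from those of the genes above them. ZDHHC13 had the lowest mean, 10.7 TPM in NC and 5.79 in SiCIRBP.

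Among all 24 ZDHHC genes, ZDHHC16 ranked 6, 9 and 9 in NC_1, NC_2 and NC_3 and 1, 3 and 1 in SiCIRBP_1, SiCIRBP_2 and SiCIRBP_3. It made up 8.31%, 6.74% and 5.95% of the TPM summed over the family in the NC libraries and 15.01%, 13.09% and 15.11% in the SiCIRBP libraries. The summed TPM of the family was 546.6, 540.5 and 565.4 in NC and 609.1, 493.8 and 615.2 in SiCIRBP, so it was not higher in each knockdown library, whereas the share of ZDHHC16 was.

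**Figure D2:**
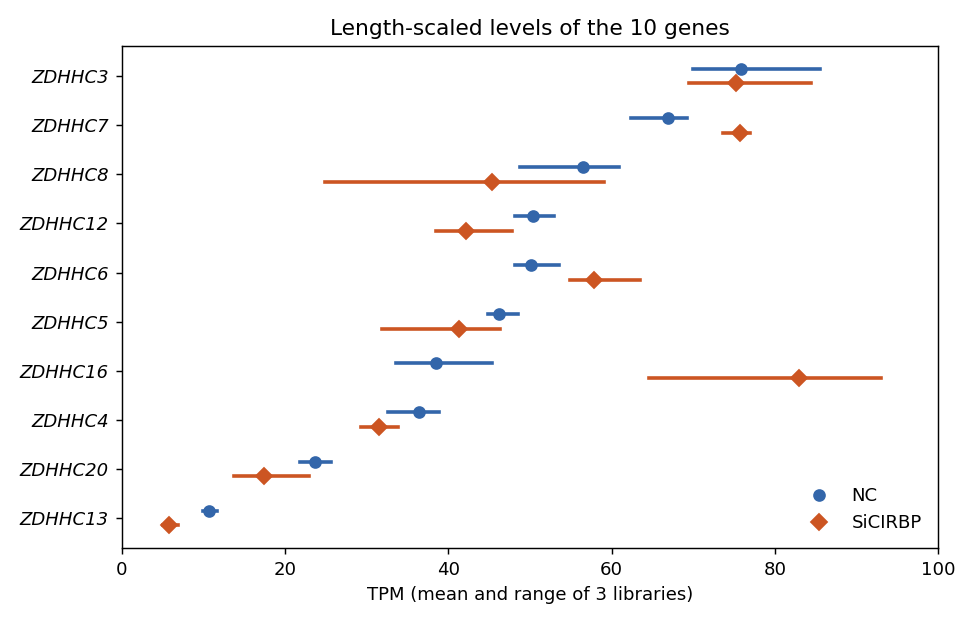
Levels of the 10 genes in TPM (linear axis from 0), with the mean as a symbol and the range of 3 libraries as a line, ordered by the NC mean. ZDHHC16 goes from seventh in NC (38.5 TPM) to first in SiCIRBP (83.0 TPM), and ZDHHC13 is lowest in both groups.

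The other 14 ZDHHC genes were set beside these, and 12 of them passed the filter on low counts (ZDHHC11B and ZDHHC15 did not). ZDHHC17, the other enzyme with ankyrin repeats, was at 21.3, 23.3 and 23.0 CPM in NC and 17.4, 14.0 and 16.3 in SiCIRBP, and fell, with a log2 difference of -0.46 (edgeR adjusted p = 0.0365). ZDHHC13 and ZDHHC17 were thus both lower in CPM in each knockdown library. So were ZDHHC21 and ZDHHC23, which lack ankyrin repeats, and 16.6% of all genes tested over 6 libraries. ZDHHC21 fell by 0.51 on the log2 scale (edgeR adjusted p = 0.0371), most in SiCIRBP_2 at 4.67 CPM against 12.9 to 15.1 in NC. ZDHHC18, a Golgi enzyme that acts on HRAS, rose by 0.48 (edgeR adjusted p = 0.0312). In TPM the groups of ZDHHC18 overlapped, and the ratio of its means was 1.2-fold against 1.5-fold in CPM. ZDHHC11 rose by 2.50 (standard error 0.38, edgeR adjusted p = 0.0114), from low levels of 1.02 to 2.70 CPM in NC to 2.76 to 8.73 in SiCIRBP. Of its 31-base words, 28.83% also occur in ZDHHC11B, which was at most at 0.24 CPM. ZDHHC11 also shares 222 exonic bases with BRD9 on the same strand, so its reads are uncertain. In all, 2 of these 12 rose and 2 fell over the 4 libraries at an adjusted p under 0.05, beside 9.62% and 9.76% of all genes. DESeq2 over 6 libraries called ZDHHC11 and ZDHHC18 up and ZDHHC17 down, beside 4.40% and 4.90% of all genes. The median log2 fold change over the 4 libraries was -0.045 in these 12 genes, 0.03 in the 10 described and -0.002 over all genes tested. Over all 6 libraries these edgeR medians were -0.215, -0.042 and 0.008, in the same order.

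The remaining 8 were not called. ZDHHC9, which pairs with GOLGA7 to act on RAS proteins, had a log2 fold change of -0.02, ZDHHC2 of -0.005, ZDHHC24 of -0.07 and ZDHHC1 of 0.006. ZDHHC14 had 0.36, ZDHHC19 -0.83, ZDHHC22 -0.43 and ZDHHC23 -0.56, and ZDHHC1, ZDHHC19 and ZDHHC22 were below 3 CPM in every library.

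**Figure D3:**
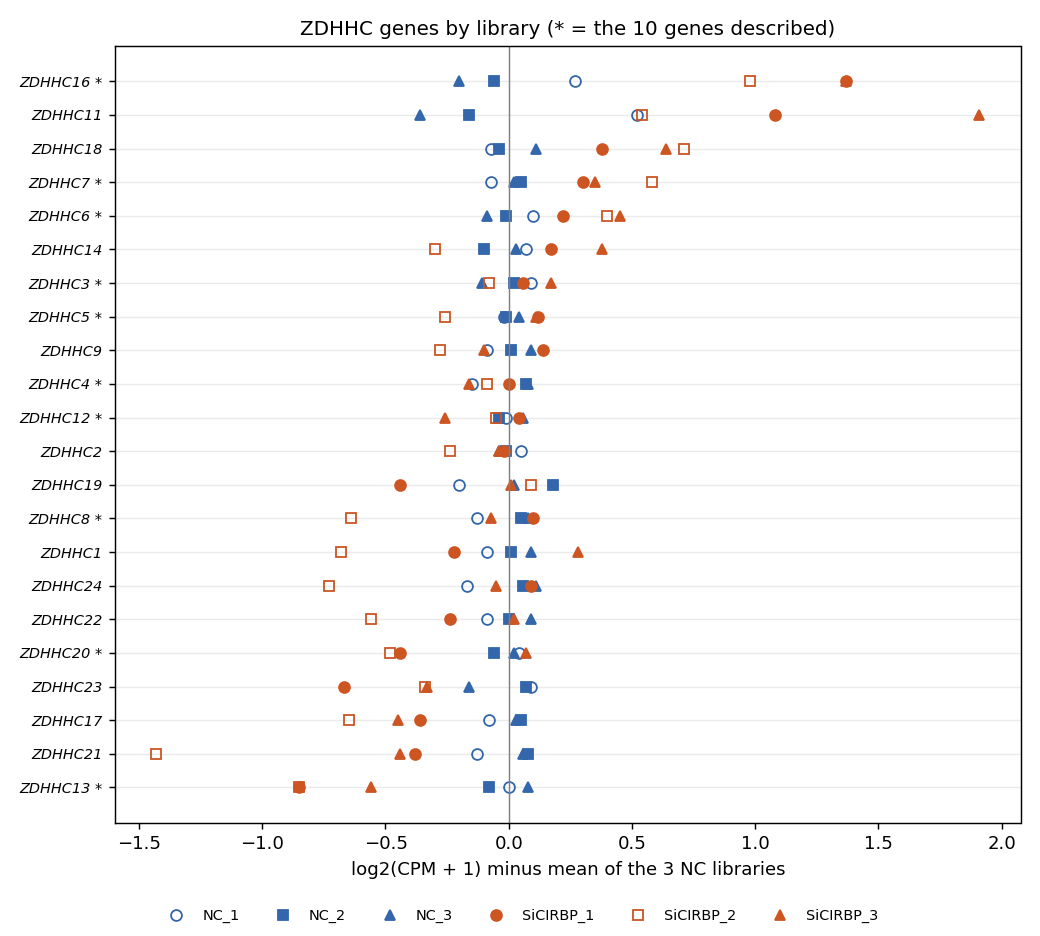
Difference of log2(CPM + 1) from the mean of the 3 NC libraries for the 22 ZDHHC genes that passed the filter on low counts, with a point for each library and the 10 described genes starred, sorted by the mean of the SiCIRBP libraries. On this scale ZDHHC16 is at 1.37, 0.98 and 1.37 in SiCIRBP_1, SiCIRBP_2 and SiCIRBP_3, at the top of the plot, and ZDHHC13 at -0.85, -0.85 and -0.56, level with ZDHHC21 at the bottom, whereas in the fit over 4 libraries ZDHHC11 (2.50) is above ZDHHC16 (1.53) and ZDHHC19 (-0.83) below ZDHHC13 (-0.75).

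The counts and the TPM values together give the transcript length the counting tool assigned to a gene in each library (count divided by TPM, scaled by the library's median), which moves when the mix of isoforms is estimated to move. For ZDHHC16 this implied length overlapped between the groups (0.580 to 0.593 in NC and 0.588 to 0.607 in SiCIRBP, relative to the median gene), and its ratio of group means was 2.16-fold in TPM against 2.39-fold in CPM. For ZDHHC7 it was longer in every SiCIRBP library (1.336 to 1.422) than in every NC library (1.276 to 1.294), and for ZDHHC5 likewise (1.782 to 1.787 against 1.720 to 1.756), whereas for ZDHHC13 it was shorter (1.020 to 1.058 against 1.061 to 1.096). Over 11560 genes, 7.47% were longer and 9.01% shorter in all SiCIRBP libraries. ZDHHC18 shifted the most of the 11 genes plotted, from 1.331 to 1.393 in NC to 1.412 to 1.724 in SiCIRBP. In ZDHHC8 the implied length was 1.412 in SiCIRBP_2 and 1.110 to 1.196 in the other libraries, so this library differed in the assigned length of ZDHHC8 as well as in its level. The ratio of group means was lower in TPM than in CPM in all 10 genes, whether the implied length was longer, shorter or overlapping. In ZDHHC13, with the shorter length, it was 0.54 against 0.57. A gap between the 2 scales therefore does not by itself show a change of length.

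**Figure D4:**
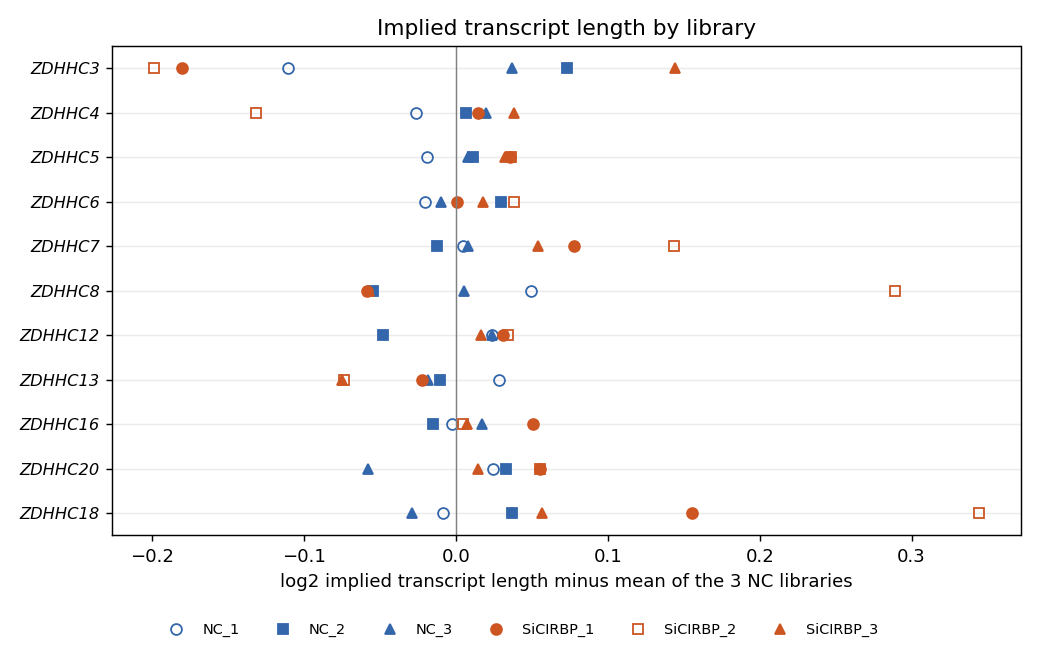
Implied transcript length as log2 difference from the mean of the 3 NC libraries, for the 10 genes and ZDHHC18, with a point for each library. ZDHHC16 stays near 0 in all 6 libraries, ZDHHC7 and ZDHHC18 are longer in each SiCIRBP library, and ZDHHC8 in SiCIRBP_2 stands apart.

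The reads of some of the genes may be shared with neighbours or copies, and whether the counting used strand is not given in the sources used here. In ZDHHC4, 9.19% of the 31-base words occur in other genes, mostly in the antisense gene AC079742.1, which was at most at 0.272 CPM. In ZDHHC20 the share was also 9.19%, mostly with the pseudogene ZDHHC20P4, listed at 0 in all 6 libraries. ZDHHC6 shares 144 exonic bases with ACSL5 on the opposite strand, at most at 0.389 CPM, and 110 with AL157786.1 on the same strand. ZDHHC12 shares 50 with PKN3, at 46.6 to 81.1 CPM. ZDHHC8 shares 2.49% of its words with the pseudogene ZDHHC8P1, at 0.855 to 2.82 CPM. ZDHHC16 and ZDHHC5 share no such words (0.0%).

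By Pearson correlation of log2(CPM + 1) over the 6 libraries, a description in which the libraries share their depth and group, the genes most like ZDHHC16 were FJX1 (0.9988), AP003733.4 (0.9973), TRAPPC12 (0.9966), LINC00909 (0.9965) and ZNF542P (0.9955). With TPM only 1 of these 5 was still among the 5 highest. FJX1 was at 161, 143 and 132 CPM in NC and at 243, 206 and 239 in SiCIRBP, the same order of libraries as ZDHHC16 within each group. FJX1 was picked for its correlation over these same 6 libraries, so the shared order is not a further result. Among the family genes the highest correlations with ZDHHC16 were 0.90 for ZDHHC11, 0.889 for ZDHHC6, 0.814 for ZDHHC18 and 0.771 for ZDHHC7, and the lowest were -0.903 for ZDHHC13 and -0.854 for ZDHHC17.

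Genes of the rest of the palmitoylation pathway differed by less than 2-fold in the fit, and the calls below are those of edgeR over the 4 libraries at an adjusted p under 0.05. Among 8 thioesterases, which remove palmitate, LYPLA2 was the 1 gene called, in the direction in which 9.62% of all genes were called. It was at 64.0, 54.7 and 47.7 CPM in NC and at 69.7, 111 and 80.1 in SiCIRBP, with no overlap, and rose by 0.55 on the log2 scale (edgeR adjusted p = 0.0232). PPT1, the lysosomal thioesterase, had a log2 difference of 0.23 (edgeR adjusted p = 0.0918). LYPLA1 was at 16.3 CPM in SiCIRBP_1 and at 40.6 to 48.7 in the other 5 libraries, and was not called (edgeR adjusted p = 0.423). Of the accessory subunits, SELENOK, the partner of ZDHHC6, and GOLGA7, the partner of ZDHHC9, each had -0.16 (edgeR adjusted p = 0.355 for both). Over all 6 libraries the edgeR values were 0.03 for SELENOK and 0.01 for GOLGA7. The median log2 difference was 0.19 for the 8 thioesterases, against -0.002 over all genes, and over all 6 libraries 0.10 against 0.008.

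Palmitoyl-CoA is the donor of the fatty acid. Of the 11 tested genes of its supply and breakdown, 2 were called up and 2 down, beside 9.62% and 9.76% of all genes. SLC27A4 and ACOT7 rose (0.44 and 0.45), of which ACOT7 breaks acyl-CoA down. ACSL3 and ACSL4, which activate fatty acids to their CoA esters, fell (-0.51 and -0.52). The edgeR adjusted p of these genes lay between 0.0153 and 0.0241. Over all 6 libraries DESeq2 called ACOT7 up and ACSL3 down, where it called 4.40% and 4.90% of all genes. In SiCIRBP_2, SLC27A4 was below and ACSL4 above all NC libraries, at 55.8 and 62.3 CPM. FASN, which makes palmitate, had a log2 difference of -0.12 (edgeR adjusted p = 0.296). Of the 9 tested transferases of other lipids RABGGTA was the 1 gene called, with -0.46 (edgeR adjusted p = 0.0489), where 9.76% of all genes were called down. The groups of RABGGTA overlapped in CPM, and it was not called by DESeq2 over all 6 libraries (DESeq2 adjusted p = 0.331). The myristoyltransferase NMT1 had 0.15 (edgeR adjusted p = 0.190).

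Of 21 palmitoylated proteins, 17 passed the filter on low counts, with CAV1 (caveolin-1) called up and 6 genes called down, where 9.62% and 9.76% of all genes were called. The median log2 difference of the 17 was -0.30, against -0.002 over all genes. CAV1 rose by 0.67 (edgeR adjusted p = 0.0102) and lay within the NC range in SiCIRBP_2, at 412 CPM. Of the genes called down, TFRC (-0.43) and ITPR1 (-0.84) encode substrates of ZDHHC6, EGFR (-0.45) and IFITM3 (-0.31) substrates of ZDHHC20, and FLOT1 (-0.42) a membrane scaffold protein, with edgeR adjusted p between 0.0149 and 0.0398 for these 5. In CPM, ITPR1, FLOT1 and EGFR were lower in each SiCIRBP than in each NC library, as were 16.6% of all genes tested over 6 libraries. ITPR1 was low, at 2.0 to 5.5 CPM, and its groups overlapped in TPM. IFITM3, which interferon induces, was at 783 CPM in SiCIRBP_2 against 366 to 418 in NC, and its log2 difference was 0.28 over all 6 libraries. CANX (calnexin), another ZDHHC6 substrate, had -0.10 (edgeR adjusted p = 0.464). Over all 6 libraries DESeq2 and edgeR each called 0 of the 17 genes. Of all genes tested, DESeq2 called 4.40% up and 4.90% down, and edgeR called 0. In edgeR 5 of the 17 lay at an unadjusted p under 0.05, as did 3603 of all 15217 genes tested. PLN, the phospholamban gene, whose product is the cardiac substrate of ZDHHC16 named above, was listed at 0 in every library.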

How the data were processed

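RNA-seq libraries of 3 NC and 3 SiCIRBP samples were analysed, grouped by their labels. The authors deposited an estimated count per gene and library (RSEM gives values that need not be whole, and 12.68% were not), and a deposited TPM value, scaled by the authors for transcript length and library. The submitters' processing notes name fastp, HISAT, RSEM and hg38, whereas versions and the annotation release are not given in the sources used here. The authors' own fold changes, p-values and 2 group-mean TPM columns were not used, and a second table holding only their comparison was not used.

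Counts were rounded and tested with edgeR 4.0.16 (R 4.3.3) by TMM normalization, filterByExpr and the quasi-likelihood test, over NC_2, NC_3, SiCIRBP_1 and SiCIRBP_3. Calls required a Benjamini-Hochberg adjusted p below 0.05, with and without a minimum change of 2-fold. DESeq2 1.42.0, all 6 libraries, other filters and leaving out libraries were alternatives, and the procedures were tested on simulated data. The CPM values shown are counts over the library's filtered total, scaled by TMM. The standard error was taken as the absolute log2 difference over the square root of F. Implied length was computed for genes with at least 50 counts, relative to the library's median. Genes were located in GENCODE 29 and promoter windows taken from RefSeq (GRCh38).

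The genes named were all 10 described, CIRBP, the other ZDHHC genes that passed the filter, the called genes of each list with at most 4 others (1 called gene is not reported here), the neighbours of ZDHHC16 and the 5 genes most correlated with it. The members and lists were chosen with earlier results of these data known.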

Additional observations from a re-analysis of the deposited data

How the results depend on the processing

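The log2 fold change of ZDHHC16 (1.53 over the 4 libraries) was 1.26 over all 6 libraries by edgeR and by DESeq2, 1.38 over 5 without SiCIRBP_2, 1.41 over 5 without NC_1, 1.37 and 1.39 on log2(TPM + 1) and log2(TPM + 0.1), 1.08 on log2(TPM + 1) over 6, and 1.45 to 1.60 with each of the 4 libraries left out, where the lone library of a group is assumed to vary like the others. Its sign held in 16 of 16 alternatives, as did those of ZDHHC4, ZDHHC6, ZDHHC7 and ZDHHC13, whereas ZDHHC5 kept its sign in 9. Genes called up numbered 281, against 0 over 6 libraries, 158 (DESeq2, 4 libraries), 166 (DESeq2, 6), 468 (no filter on low counts), 109 and 5 (5 libraries, without SiCIRBP_2 and without NC_1), 1484 (no minimum fold) and 24 (without NC_3) to 618 (without SiCIRBP_1) with 1 of the 4 libraries left out. Genes called down numbered 278, against 0, 158 (DESeq2, 6), 124, 13, 1505 and 37 (without NC_3) to 558 (without SiCIRBP_3) in the same way. List genes called up numbered 1 (ZDHHC11), against 0 over 6 libraries, 0 without NC_1, 6 with no minimum fold and 0 without NC_2 or NC_3 and 1 without either SiCIRBP library, and those called down 0, against 11 with no minimum fold and 0 to 2 with 1 library left out (2 without SiCIRBP_3). Of the 5 genes most like ZDHHC16, 1 remained on the TPM scale. The cause was not tested.

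With the replicate number as a block over 6 libraries, the log2 fold change of ZDHHC16 was 1.26, 1 gene was called up and 0 down, and list genes called numbered 0. The deviations of same-numbered libraries correlated at -0.118, 0.006 and -0.026, so no likeness by number was seen. Differently numbered libraries were not compared, and the labels do not say whether same-numbered libraries were made together, so pairing was not settled. The alternatives with 5 libraries and with no minimum fold were chosen after seeing the data.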
